A study of Mus musculus with 6 samples.

Results

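The nuclear genes of oxidative phosphorylation were taken from the deposited table by name, as those starting with Nduf (complex I and its assembly factors), Sdha to Sdhd (complex II), Uqcr (complex III), Cox4 to Cox8 with at most a letter and a digit behind (complex IV) and Atp5 (ATP synthase, complex V), without names that contain -ps. The rule found 97 of 54167 genes and used no measured value. RNA was sequenced from 6 colorectal tumors of C57BL/6J mice, 3 of the genotype Trp53fl/fl and 3 of the genotype VP. Both genotypes carried floxed Trp53 alleles, and the VP mice also carried Pvillin-Cre, a Cre recombinase under the villin promoter that is active in intestinal epithelial cells and deletes Trp53 there. According to the methods, male mice aged 8 weeks were injected with the carcinogen azoxymethane (AOM, 10 mg/kg) and drank the colitis-inducing polymer dextran sulfate sodium (DSS, 2.5%) in courses of 7 days with 2 weeks of recovery, and tumors were cut out of the surrounding tissue on day 98. The values are TPM, read abundances corrected for the length of the transcript and set to a common total per tumor, so levels can be compared between genes, while the number of reads behind a value is unknown.

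Oxidative phosphorylation takes place in the inner mitochondrial membrane. Complexes I and II pass electrons from NADH and succinate to ubiquinone, complex III hands them to cytochrome c and complex IV to oxygen, and the protons pumped by complexes I, III and IV drive ATP synthase. Most subunits are encoded in the nucleus and a few in the mitochondrial genome, and in the intestinal epithelium these complexes are best known for supplying the differentiated absorptive cells, whereas p53 is known to favor respiration through genes such as Sco2, a complex IV assembly factor.

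None of the 97 genes differed between the genotypes at an adjusted p-value under 0.05 (limma on log2(TPM + 1), Benjamini-Hochberg adjustment over all genes tested), the smallest adjusted p being 0.261. Over all 15117 genes tested, 25 passed, which is 0.165%, with 0.0794% higher and 0.086% lower in VP tumors. Of the members, 89 had 1 TPM or more in 3 or more tumors and were tested, 7 were at 0 in every tumor, and Cox6a2 stayed below the filter. At an unadjusted p under 0.05, 3 members were higher in VP tumors (background 4.51% of all genes tested) and 3 were lower (background 8%), together 6.74% of the members against 12.5% of all genes. The differences of the members were small. They ran from -0.64 for Cox6b2 to 0.55 for Cox8b on the log2 scale, VP minus Trp53fl/fl, their middle 50% lay between -0.04 and 0.20, and no member differed by more than 1. The 95% confidence interval of the difference lay within 1 log2 unit of 0 for 87 of the 89 genes and within 0.5 for 59, with a median half-width of 0.30, so changes under about that size could not be resolved with 3 tumors a group. Trp53 itself, which checks the labels, measured 125, 99.3 and 147 TPM in Trp53fl/fl and 38.5, 32.8 and 27.8 TPM in VP tumors, and its log2 difference was -1.87 (limma adjusted p = 0.0207). That call was lost with the replicate number as a block (limma adjusted p = 0.0883), without a filter on low values (0.105) and without Trp53fl/fl replicate 1 or 3 or VP replicate 1 or 2 (0.0553 to 0.0986), while the difference kept its direction and a size of -2.02 to -1.74 with each tumor left out.

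**Figure D1:**
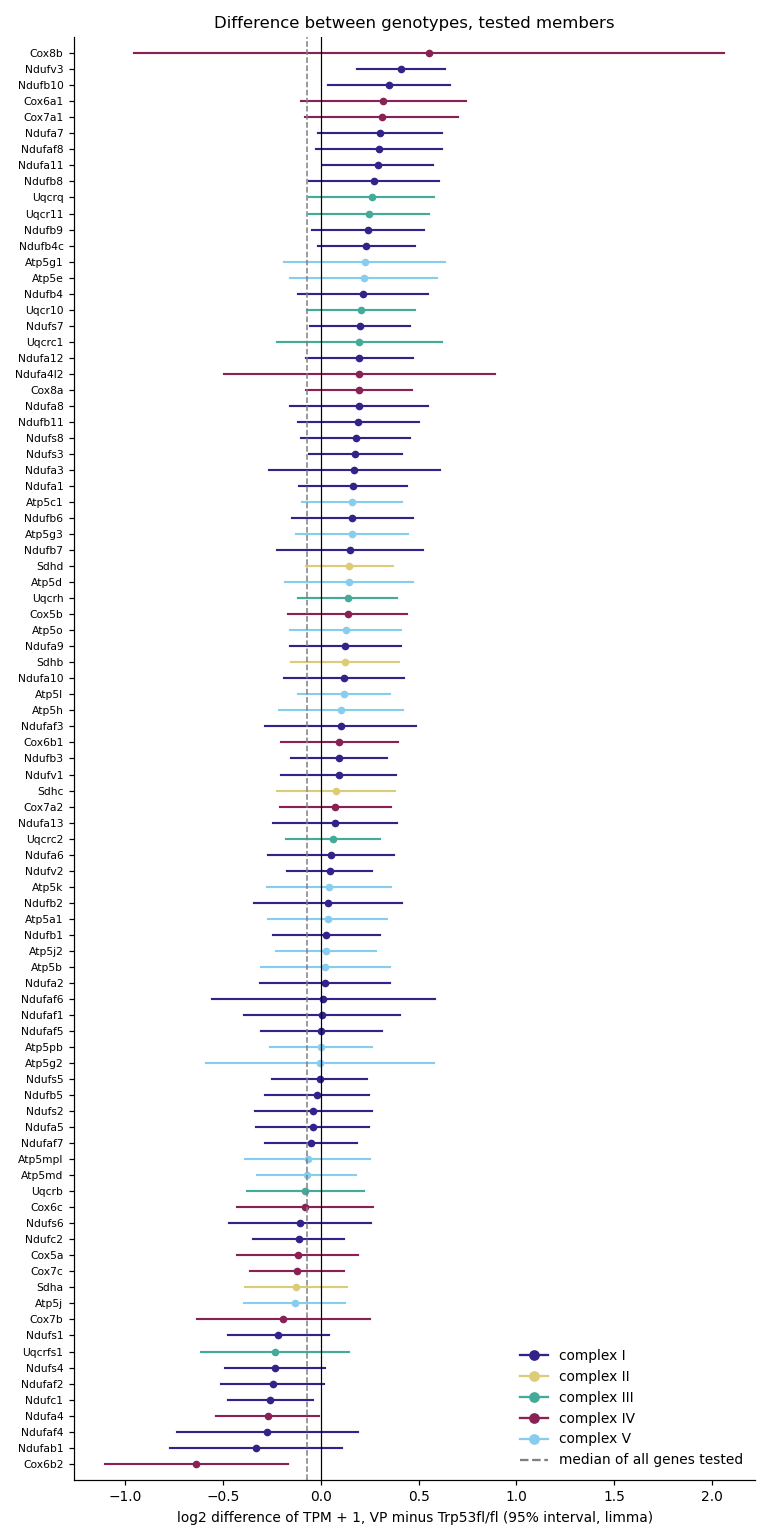
Log2 difference of TPM + 1 between VP and Trp53fl/fl tumors for the 89 tested genes, sorted (points, limma estimates; lines, 95% confidence intervals; colors, complexes; dashed line, the median of all genes tested at -0.07). Most intervals cross 0, and 63 of the 89 estimates lie above it.

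By direction alone, 63 members had a log2 difference above 0 and 26 one below. That is 70.8% higher against 39.2% of all genes tested, of which 60.8% were lower. The median log2 difference was 0.09 over the members and -0.07 over all genes tested. Members with no overlap between the genotypes numbered 8 higher in VP (8.99%, background 6.03%) and 6 lower (6.74%, background 13.3%). The median of the members lay above that of all genes by 0.16, and by 0.07 to 0.20 under the alternatives that could alter this. Its sign against 0 depends on the scaling, since centring each tumor on 12 epithelial marker genes lowers every gene by the same amount and put the members at -0.11 and all genes at -0.27. Without replicate 2 of both genotypes, an alternative chosen after the data had been seen, the members had a median of -0.01. The summed level of the 12 epithelial markers (Epcam, keratins, Vil1 and others), all of them measured, was 10718 to 11244 TPM in the Trp53fl/fl tumors and 12201 to 13352 TPM in the VP tumors, without overlap, and that of the 10 neutrophil markers 300.6 to 639 and 1160 to 1959 TPM, with 10 of 10 genes higher and 1 of them, Ngp, past the threshold. Of the 12 epithelial markers taken singly, 11 had log2 differences above 0 and 1 below. Higher without overlap were 3 of the 12 (background 6.03% of all genes tested), and none passed. No gene passed either in the lists for mature colonocytes, smooth muscle, striated muscle, adipocytes, fibroblasts, pericytes, endothelium, macrophages, T cells or B and plasma cells. Their part in the small difference of the members was not tested, and in whole tumors a different number of cells of a type and a different amount of RNA per cell cannot be told apart.

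The tumor-to-tumor spread within a genotype was of the same order as the difference. The 97 genes together took 26782, 24958 and 28035 TPM in Trp53fl/fl and 26516, 30463 and 28170 TPM in VP tumors, or 2.66 ± 0.154% and 2.84 ± 0.198% of the total (mean ± SD, n = 3). These groups overlapped, since VP replicate 1 lay below 2 of the Trp53fl/fl tumors. Replicate 2 of each genotype stood at an end of the range. Trp53fl/fl replicate 2 had the lowest value of the 6 tumors for 46 of the 89 genes, and VP replicate 2 had the highest for 48. Without the former the median difference of the members was 0.04, and without the latter 0.03. The typical standard deviation of a member within a genotype was 0.147 on the log2 scale, compared with 0.211 for all genes tested.

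The mean sum of the mitochondrial genome transcripts was higher in Trp53fl/fl than in VP tumors, but the genotypes overlapped. These transcripts summed to 54445, 78436 and 62481 TPM in the Trp53fl/fl tumors and to 63956, 49553 and 53698 TPM in the VP tumors. Trp53fl/fl replicate 2, lowest in the nuclear genes, was highest here, and VP replicate 2, highest in the nuclear genes, was lowest. Because TPM have a fixed total, a larger share of mitochondrial transcripts lowers all other values. With TPM rescaled without the mitochondrial genome, the median difference of the nuclear genes was 0.08. The 13 mitochondrial mRNAs had a median log2 difference of -0.07, the same as over all genes tested (-0.07). Of these 13, 5 lay above 0 and 8 below (background 39.2% and 60.8% of all genes tested), and none passed the adjustment. The smallest p among them belonged to mt-Nd3, a membrane subunit of complex I, which was at 1433, 878 and 1734 TPM in Trp53fl/fl and 751, 793 and 1004 TPM in VP tumors (log2 difference -0.62, limma adjusted p = 0.391). Its groups overlapped.

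**Figure D2:**
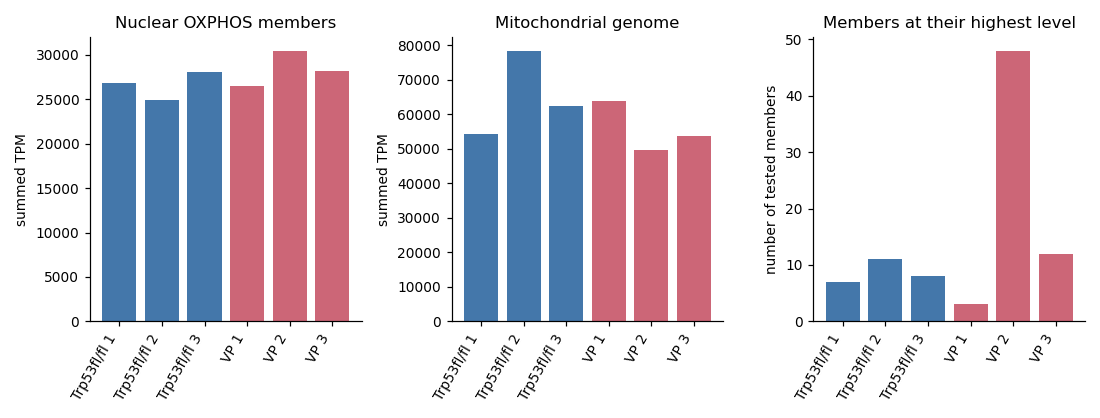
Bars give, for each of the 6 tumors, the summed TPM of the 97 nuclear genes (left), the summed TPM of the mitochondrial genome (middle) and the number of the 89 tested genes that were at their highest in that tumor (right). VP replicate 2 holds the highest value of 48 genes and Trp53fl/fl replicate 2 the largest mitochondrial sum, 78436 TPM.

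The members were among the more abundant transcripts of the tumors, 68 of the 89 having a mean over 100 TPM, and their levels followed complex and role. The median gene was at 194 TPM in Trp53fl/fl and 206 TPM in VP tumors. The F1 head and central stalk of ATP synthase had the highest median, with 706 and 725 TPM. The widely expressed subunits of complex IV (551 and 511 TPM), the c ring (446 and 519.6 TPM) and the peripheral stalk and membrane part of ATP synthase (438 and 477 TPM) came next, the c ring being above complex IV in VP tumors only. Complex III had a median of 375 and 404 TPM. The catalytic core of complex I (133 and 142 TPM), its accessory subunits (159 and 168 TPM) and complex II (157 and 158 TPM) were lower and close to each other. The Ndufaf assembly factors, which help to build complex I and are not part of it, were lowest among the widely expressed genes, at 17.2 TPM in Trp53fl/fl tumors.

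**Figure D3:**
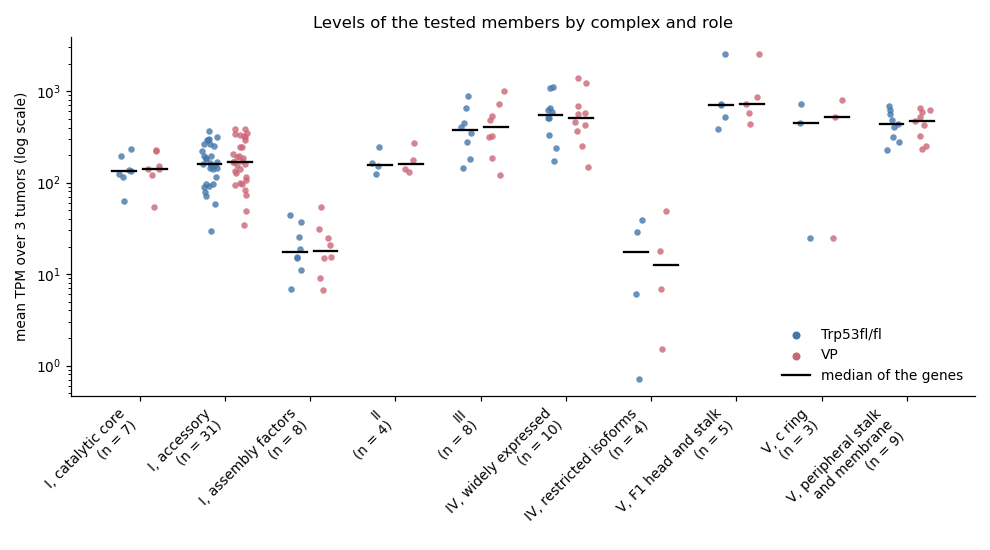
Mean TPM over 3 tumors of each tested gene (points, log axis) by complex and role, with Trp53fl/fl in blue, VP in red and the median of the genes as a black line. Assembly factors have a median of 17.2 TPM and the F1 head and stalk of ATP synthase 706 TPM in Trp53fl/fl tumors, and the 4 restricted complex IV isoforms reach down to the lowest gene, Cox8b.

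Complex I supplied the most members. Its 38 genes listed as subunits, all of which were tested, include Ndufb4c, a processed pseudogene copy of Ndufb4. Of the 38, 28 had log2 differences above 0 and 10 below, with a median of 0.12 and none past the adjustment. Of the 7 core subunits, which carry the flavin and iron-sulfur clusters, 5 were higher and 2 lower. Ndufs1, the large iron-sulfur subunit, had the lowest level of the core (58.6 TPM on average) and was lower in all 3 VP tumors than in any Trp53fl/fl tumor (log2 difference -0.22, limma adjusted p = 0.451), whereas Ndufs7, which holds the last cluster before ubiquinone, had the opposite order (0.20, limma adjusted p = 0.477). The 95% confidence intervals of both included 0. Among the 31 accessory subunits, counted with the copy Ndufb4c, 23 were higher and 8 lower.

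The gene with the smallest p of all members was Ndufv3, an accessory subunit of the NADH-binding module (chr17:31520115-31531331 on GRCm38, GENCODE M21). It was at 153, 151 and 160.3 TPM in Trp53fl/fl and 198, 221 and 200.1 TPM in VP tumors. All 3 VP tumors lay above all 3 Trp53fl/fl tumors. The log2 difference was 0.41 (standard error 0.096), with an unadjusted p of 0.00349 and a limma adjusted p of 0.261, and it stayed between 0.36 and 0.44 whichever tumor was left out. Ndufb10, of the membrane arm, was at 196, 169 and 216 TPM against 245, 274 and 222 TPM (log2 difference 0.35, limma adjusted p = 0.365). The genotypes were separated by 216 and 222 TPM only. Ndufa11, which sits in the membrane arm near the contact with complex III, was at 257, 232 and 298 TPM against 309, 327 and 323 TPM (0.29, limma adjusted p = 0.386), again without overlap. In the other direction, Ndufc1, a small membrane arm subunit, was at 160, 153 and 164 TPM against 136, 136 and 127 TPM (-0.26, limma adjusted p = 0.345).

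**Figure D4:**
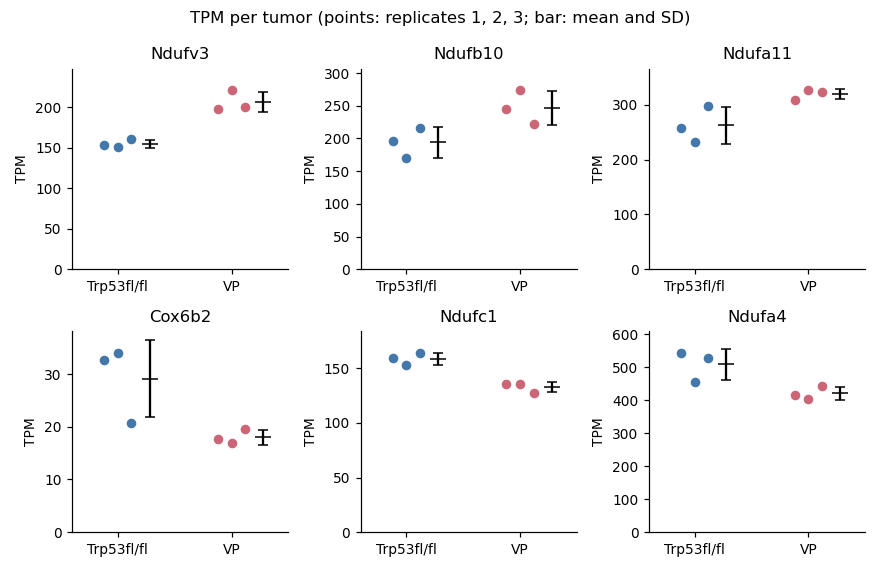
TPM in each tumor (points, replicates 1 to 3 from left to right) with the mean and SD (bars) for the 6 members that had an unadjusted p under 0.05 and no overlap between the genotypes. Ndufv3, Ndufb10 and Ndufa11 are higher in the VP tumors and Cox6b2, Ndufc1 and Ndufa4 lower, and none passed the adjustment over all genes.

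The most abundant complex I transcript was Ndufa6, at 370, 373 and 349 TPM in Trp53fl/fl and 448, 372 and 322 TPM in VP tumors. The VP tumors spanned the Trp53fl/fl values on both sides. The least abundant was Ndufb4, at 30.9, 25.7 and 33.0 TPM against 30.2, 37.0 and 37.1 TPM (log2 difference 0.22, limma adjusted p = 0.543). This low level stands beside that of Ndufb4c, a copy on chromosome 15 that GENCODE M21 types as a processed pseudogene, which was listed at 234, 246 and 265 TPM against 302, 268 and 306 TPM. Every stretch of 31 bases in the annotated Ndufb4c transcript also occurs in Ndufb4, so reads from Ndufb4 can be counted at the copy, and Ndufb4 held only 10.7 ± 1.14% (SD, n = 3) of the TPM of the pair in Trp53fl/fl and 10.7 ± 1.52% (SD, n = 3) in VP tumors. The level of either gene is therefore uncertain. Ndufb4c was higher in all VP tumors (0.23, limma adjusted p = 0.416). For 28 of the 89 tested members, over 10% of their 31-base stretches occur in transcripts of another gene, with 69.6% for Atp5l, 54.3% for Uqcrb, 49.3% for Ndufs3 and 46.9% for Atp5h, in these 4 mostly shared with gene models named Gm and a number. Of the 97 members, 5 are not typed as protein coding, and 2 of these, Ndufb4c and Ndufb1, were tested. The copies Ndufa11b, Ndufb11b, Ndufs6b and Cox6c2 and a further Atp5o entry (ENSMUSG00000116933) were at 0 throughout.

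Of the 8 Ndufaf assembly factors, 5 had log2 differences above 0 and 3 below, with a median of 0.01. Ndufaf8, needed for the assembly factor Ndufaf5 to work, was at 45.2, 45.6 and 41.3 TPM against 46.7, 63.8 and 53.5 TPM (log2 difference 0.30, limma adjusted p = 0.421). Ndufaf2, which chaperones a late step of assembly, was at 39.8, 37.4 and 33.7 TPM against 30.7, 32.6 and 29.6 TPM (-0.25, limma adjusted p = 0.416). Neither overlapped between the genotypes, in opposite directions, and neither passed.

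Complex II, the succinate dehydrogenase that also works in the citric acid cycle, has 4 subunits and all are nuclear. Sdha, the flavoprotein that oxidizes succinate, was at 147, 157 and 151 TPM in Trp53fl/fl and 133, 157 and 129 TPM in VP tumors (log2 difference -0.13, 95% confidence interval -0.39 to 0.14). Sdhb, with the iron-sulfur clusters, was at 161, 145 and 183 TPM against 167, 178 and 185 TPM (0.12, interval -0.15 to 0.40). Both pairs of groups overlapped. The membrane anchors were the highest and the lowest gene of the complex. Sdhd was at 241, 237 and 254 TPM against 276, 279.5 and 255 TPM and did not overlap between the genotypes, by a margin of about 1 TPM (0.15, limma adjusted p = 0.535). Sdhc was at 120, 109 and 140 TPM against 118, 131 and 140 TPM (0.08, interval -0.22 to 0.38).

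Complex III had 6 of its 8 genes with higher means and 2 with lower means in VP, with a median of 0.17 and none past the adjustment. The small subunit Uqcr10 led by level, at 852, 811 and 958 TPM in Trp53fl/fl and 1077, 1000 and 941 TPM in VP tumors (log2 difference 0.20, limma adjusted p = 0.496). The groups overlapped. The large core proteins Uqcrc1 and Uqcrc2 were lower, with 276 ± 50.4 and 179 ± 7.32 TPM in Trp53fl/fl and 316 ± 52.4 and 187 ± 14.4 TPM in VP tumors (SD, n = 3). Uqcrfs1, the Rieske iron-sulfur protein that takes electrons from ubiquinol, had the lowest level of the complex, at 174, 113 and 145 TPM against 117, 123 and 121 TPM (-0.23, limma adjusted p = 0.561). Here the spread of the Trp53fl/fl tumors enclosed all 3 VP tumors. Cyc1, the cytochrome of complex III whose name the rule does not cover, was at 206, 165 and 243 TPM against 203, 252 and 218 TPM (0.14, limma adjusted p = 0.728).

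Complex IV has tissue-specific isoforms for several subunits, and in these tumors the widely expressed form was far ahead in every pair. Cox6a1, the highest gene of the complex, was at 1109, 958 and 1267 TPM in Trp53fl/fl and 1133, 1669 and 1386 TPM in VP tumors (log2 difference 0.32, limma adjusted p = 0.487), while its heart and muscle form Cox6a2 lay between 0 and 0.33 TPM. Cox8a was at 1105, 987 and 1165 TPM against 1178, 1277 and 1269 TPM, without overlap (0.20, limma adjusted p = 0.504). Its counterpart Cox8b, known from muscle and brown fat, was at 2.12, 0 and 0 TPM against 3.27, 1.31 and 0 TPM, and its estimate of 0.55 had an interval from -0.95 to 2.06. The forms Cox7b2 and Cox8c were at 0. Markers of striated muscle (7 genes, 1 at 0 in all tumors) summed to 9.54 to 14.1 TPM in Trp53fl/fl and 12.3 to 22.7 TPM in VP tumors, and 5 adipocyte markers, of which Ucp1 and Lep were at 0, to 1.27 to 4.01 and 1.67 to 5.48 TPM.

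Cox7a1, also a heart and muscle form, was the exception in amount. It was at 33.5, 37.5 and 45.9 TPM in Trp53fl/fl and 42.5, 57.8 and 45.8 TPM in VP tumors, and made 14.2 ± 2.65% and 16.3 ± 1.02% (SD, n = 3) of the sum with Cox7a2, which itself was at 236 ± 12.8 and 250.1 ± 31.8 TPM (SD, n = 3). The groups overlapped for both (log2 difference 0.31 for Cox7a1, limma adjusted p = 0.470). Smooth muscle markers, a tissue of the colon wall, summed to 488 to 809 TPM in Trp53fl/fl and 415 to 1347 TPM in VP tumors, and their part in the level of Cox7a1 was not tested.

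The lowest estimate of all members belonged to Cox6b2, the testis form of the subunit that faces cytochrome c. It was at 32.6, 34.0 and 20.7 TPM in Trp53fl/fl and 17.6, 16.9 and 19.5 TPM in VP tumors. The groups did not overlap, but Trp53fl/fl replicate 3 was within about 1 TPM of VP replicate 3. The log2 difference was -0.64 (standard error 0.198, unadjusted p = 0.0145, limma adjusted p = 0.317). As a share of the sum with Cox6b1, Cox6b2 made 4.71, 5.60 and 2.85% in the Trp53fl/fl tumors and 2.71, 2.18 and 2.79% in the VP tumors. Cox6b1 itself was at 646 ± 66.8 and 689 ± 62.8 TPM (SD, n = 3; log2 difference 0.09, limma adjusted p = 0.769).

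Ndufa4, first described in complex I and now placed in complex IV, was at 544, 456 and 530 TPM in Trp53fl/fl and 416, 405 and 443 TPM in VP tumors (log2 difference -0.27, unadjusted p = 0.0441, limma adjusted p = 0.388). The lowest Trp53fl/fl value lay just above the highest VP value. Its paralog Ndufa4l2, known as a hypoxia-induced gene, was at 3.60, 8.39 and 6.23 TPM against 5.65, 6.03 and 9.04 TPM, with overlap (0.20, interval -0.50 to 0.89). Over the 10 widely expressed genes of complex IV, 5 were higher and 5 lower, with a median of 0.00. Cox4i1, a regulatory subunit, falls outside the name rule and was at 1029, 919 and 1209 TPM against 1071, 1321 and 1333 TPM (0.24, limma adjusted p = 0.526), with its lung form Cox4i2 at 1.29 to 3.58 TPM.

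ATP synthase held the most abundant member. Atp5b, the catalytic beta subunit of the F1 head, was at 2392, 2401 and 2804 TPM in Trp53fl/fl and 2270, 2721 and 2736 TPM in VP tumors, and its log2 difference of 0.02 had an interval from -0.31 to 0.35. The 17 genes of the complex summed to 10103 ± 556 and 10604 ± 970 TPM (SD, n = 3), with 13 higher and 4 lower (background 39.2% and 60.8%). No member was without overlap (background 6.03% higher and 13.3% lower), and none had an unadjusted limma p under 0.05 (background 12.5%). All 5 genes of the F1 head and stalk had estimates above 0, from 0.02 to 0.22. The 9 genes of the peripheral stalk and membrane part had a median of 0.02.

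The c ring, which turns as protons pass, is built from 1 mature protein encoded by 3 genes that differ in their import signals. Atp5g3 made 60.7 ± 1.91% of the c ring TPM in Trp53fl/fl and 59.8 ± 2.47% in VP tumors, Atp5g1 37.2 ± 1.66% and 38.4 ± 2.17%, and Atp5g2 2.06 ± 0.328% and 1.82 ± 0.310% (SD, n = 3). The division between the genes was thus alike in both genotypes within the spread of the tumors. In TPM, Atp5g3 was at 752, 638 and 778 against 753, 857 and 803, and Atp5g1 at 476, 358 and 503 against 456, 615 and 487, with overlap. Atp5g2, the lowest gene of complex V, was at 24.2, 18.5 and 32.0 TPM against 21.0, 32.6 and 20.6 TPM, and 40.2% of its 31-base stretches occur in other genes.

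The medians of the following lists of other genes lay between -0.04 and 0.16, against -0.07 over all genes tested. Of the 35 tested assembly factors of complexes II to V, 15 were higher and 20 lower with a median of -0.03, and of the 14 enzymes of the citric acid cycle 8 were higher and 6 lower with a median of 0.05. Atpaf2, which helps the F1 head to assemble, had the smallest p of the former, at 26.0, 27.2 and 29.3 TPM in Trp53fl/fl and 33.9, 31.8 and 34.2 TPM in VP tumors (log2 difference 0.27, limma adjusted p = 0.373). Sco2, a known p53 target, was at 13.9, 8.97 and 11.5 TPM against 8.75, 13.3 and 15.7 TPM, with overlap (0.11, interval -0.46 to 0.68). Other lists had medians of 0.16 for 6 subunits outside the name rule, -0.04 for 10 further complex I assembly factors, 0.03 for 17 outer membrane and carrier genes and 0.03 for 78 mitochondrial ribosomal proteins. The 82 tested cytosolic ribosomal proteins, which have no part in respiration, had a median of 0.10, near that of the members. No gene of these lists passed the adjustment.

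Most members have short transcripts, and their median lay above 0 in each length class. The 64 members with a median coding transcript under 1000 bases had a median log2 difference of 0.12, against -0.01 for the 2448 other coding genes of that length. For 1000 to 2000 bases the medians were 0.02 for 19 members and -0.02 for 3716 other genes, and for longer transcripts 0.04 for 4 members and -0.11 for 7064 other genes. The part of length in the difference between the members and all genes was not tested.

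Of 14 regulators of mitochondrial biogenesis, 4 had log2 differences above 0 and 10 below, with a median of -0.15 and none past the adjustment. Gabpa, the DNA-binding subunit of nuclear respiratory factor 2, had the smallest p, at 18.2, 25.01 and 15.8 TPM in Trp53fl/fl and 13.7, 13.0 and 12.9 TPM in VP tumors. All VP tumors lay below all Trp53fl/fl tumors (log2 difference -0.52, unadjusted p = 0.0199, limma adjusted p = 0.337). Nrf1, nuclear respiratory factor 1, was at 23.9, 20.1 and 21.7 TPM against 25.4, 19.1 and 22.6 TPM (0.02, interval -0.31 to 0.36). The coactivator Ppargc1a, the orphan receptor Esrra and the mitochondrial transcription factor Tfam also overlapped between the genotypes, with log2 differences of -0.06, 0.17 and 0.05.

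Nrf1 and Gabpa are known to bind promoters of respiratory genes. The RefSeq windows from 250 bases before to 50 bases after each start (GRCm38.p6) were therefore searched on both strands for motifs of these and other factors. A window was found for 75 of the 89 tested members and 10892 other tested genes. The letters CGCNTGCG, the center of the NRF1 motif, occurred for 29 of 75 members (38.7%) and for 17.9% of the other genes. AAGATGGCG, bound by YY1, occurred for 8 members (10.7%, others 3.31%), CCGGAAGT, an ETS motif of the kind that Gabpa binds, for 5 (6.67%, others 8.51%) and TGACGTCA, the cyclic AMP response element, for 4 (5.33%, others 3.39%). The windows had a similar base composition, with a median of 58.8% G and C and 20 CG pairs for the members against 60.3% and 19. A match describes letters and does not show binding. To show how the letters lie, 1 gene of each complex with a match before its start is given here, 5′ to 3′ on the strand of the gene, cut to the stretch nearest the start that holds no annotated exon, with the matches in capitals.

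Ndufa11 (complex I, chr17:56717686-56717761, plus strand), with the NRF1 letters ending 52 bases before the start: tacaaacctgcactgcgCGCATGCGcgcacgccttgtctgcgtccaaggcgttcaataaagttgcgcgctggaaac
Sdha (complex II, chr13:74350281-74350308, minus strand), with the NRF1 letters, read on the other strand, ending 47 bases before the start: ggaggggcgtgttgCGCAGGCGcagaat
Uqcrh (complex III, chr4:116075072-116075250, minus strand), with the ETS letters, read on the other strand, ending 4 bases before the start: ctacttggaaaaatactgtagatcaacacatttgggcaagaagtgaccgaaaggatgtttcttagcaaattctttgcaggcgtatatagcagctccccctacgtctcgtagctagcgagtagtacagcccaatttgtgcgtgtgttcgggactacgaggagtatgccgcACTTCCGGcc
Cox6a1 (complex IV, chr5:115348982-115349129, minus strand), with the NRF1 letters ending 154 bases before the start, where they read alike on both strands, and 109 bases before it on the other strand: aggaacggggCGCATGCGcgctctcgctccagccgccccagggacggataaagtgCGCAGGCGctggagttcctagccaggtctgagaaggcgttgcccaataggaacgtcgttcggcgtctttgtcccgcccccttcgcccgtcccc
Atp5md (complex V, chr19:47090648-47090767, minus strand), with the NRF1 letters ending 11 bases before the start: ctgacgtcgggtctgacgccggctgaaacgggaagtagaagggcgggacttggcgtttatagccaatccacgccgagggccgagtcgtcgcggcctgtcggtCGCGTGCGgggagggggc

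These 5 genes did not share a direction. Ndufa11 and Cox6a1 had log2 differences of 0.29 and 0.32, Uqcrh 0.14, Atp5md -0.07 and Sdha -0.13, and none passed the adjustment. For Ndufa11, Sdha, Cox6a1 and Atp5md, exons of the neighbouring genes Vmac, Ccdc127, Gm42903 and Pdcd11, in that order, lie within 180 bases before the start.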

How the data were processed

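RNA was poly(A)-selected and read from both ends in 6 tumors. The submitters' processing notes name HISAT2, StringTie and mm9, without versions, and the authors deposited TPM per gene for each tumor, which sum to 999964 to 1000067. Depth is unknown, since TPM keep no reads. The table holds no coordinates. Those given are from GENCODE M21 (GRCm38), which holds 96.27% of the gene IDs and all 97 members. From the deposited TPM, log2(TPM + 1) of genes that reached 1 TPM in 3 or more tumors was tested with limma 3.58.1 in R 4.3.3. Settings were empirical Bayes with trend, Benjamini-Hochberg adjustment and a threshold of 0.05, for VP minus Trp53fl/fl. The procedure was also run on simulated data. The changes put into those data were all larger than the estimate of any member, so the run does not show how smaller ones are recovered. The log2(TPM + 1) scale understates changes of low genes. Nothing states that the 3 tumors of a group come from separate litters or batches, so p-values measure the spread between these tumors.

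The members and all gene lists were chosen with earlier results of these data known. Named were members with an unadjusted p under 0.05 and no overlap, the highest and lowest gene of each complex, the complex II, c ring and isoform genes, Uqcrc1, Uqcrc2 and Uqcrfs1, chosen regulators and partners, and the smallest p under 0.05 of other lists. Ndufs1, Ndufs7, Ndufaf2, Ndufaf8, Ndufb4c and genes with shared or printed sequences were named after their values were seen. Alternatives were another pseudocount, 2 other filters, 4 other scalings, no trend, a replicate block and tumors left out.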

Additional observations from a re-analysis of the deposited data

How the results depend on the processing

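No member passed the threshold under any of the 16 alternatives, where the smallest adjusted p of a member was 0.103. Over all genes the count of 25 (48.0% higher in VP) became 7 (57.1%) without an expression filter and 50 (28%) with centring on epithelial markers, 60% were higher with median-of-ratios rescaling, and leaving out 1 tumor gave 6 to 28 (58.8 to 75%). Members higher at an unadjusted p under 0.05 numbered 15 with median-of-ratios rescaling, 0 with epithelial centring, 1 without trend and between 1 and 7 with single tumors omitted. Members lower numbered 6 without a filter, 1 with median-of-ratios rescaling, 15 with epithelial centring, 1 without trend and between 0 and 5 with single tumors omitted. Over all 15117 genes, an unadjusted p under 0.05 in either direction was reached by 1892 in the main fit and by 4528 with epithelial centring. It was reached by 1753 with median-of-ratios rescaling, 1895 without trend, 1648 with the replicate block and 1130 to 2433 with single tumors omitted. Without a filter it was reached by 2416 of 27871 genes, and without replicate 2 of both genotypes by 1107. The median of the members was between 0.03 and 0.13 with 1 tumor left out. Without Trp53fl/fl replicate 1, 2 or 3 the counts of members higher and lower were 1 and 0, 1 and 5, and 7 and 3, and without VP replicate 1, 2 or 3 they were 5 and 2, 2 and 1, and 2 and 1, while over all genes fewer passed without Trp53fl/fl replicate 1 (8) or 3 (10) and VP replicate 1 (9) or 2 (6). The excess of the members over the median of all genes was 0.07 to 0.20 over the settings. Epithelial centring, no trend and the replicate block cannot change this excess and gave the 0.16 of the main fit. Median-of-ratios rescaling moved the median of all genes from -0.07 to 0.00, and epithelial centring to -0.27.

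The replicate numbers do not pair the tumors (correlations of deviations 0.019, -0.052 and 0.018). With the replicate number as a block, 10 genes passed (70% higher), 1 member was lower at an unadjusted p under 0.05, and Trp53 had an adjusted p of 0.0883. Trp53 kept a log2 difference between -2.02 and -1.74 when single tumors were omitted, but its adjusted p was over 0.05 without Trp53fl/fl replicate 1 or 3 (0.0986, 0.0553), without VP replicate 1 or 2 (0.0583, 0.0938) and without a filter (0.105). The cause was not tested.

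Without replicate 2 of both genotypes, chosen after seeing the data, 6 genes passed, 1 member was higher at an unadjusted p under 0.05, the median of the members was -0.01 (-0.0072), and the sign turned for Sdhc (-0.0126), Atp5b (-0.0553), Atp5g1 (-0.0537), Cox6b1 (-0.0579), Cox7a2 (-0.0072), Uqcrc1 (-0.035), Cyc1 (-0.0908), Sco2 (-0.0973) and Ppargc1a (0.0038).

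Signs of named genes that did not pass the test also turned elsewhere. Epithelial centring subtracts the same amount from every gene and put the median of the members at -0.11 (-0.1075), so that the estimates nearest above 0 became negative by construction, with -0.15 for Ndufa6, -0.0529 for Sdhd, -0.12 for Sdhc, -0.18 for Atp5b, -0.0763 for Sdhb, -0.0419 for Atp5g3, -0.11 for Cox6b1, -0.13 for Cox7a2, -0.004 for Cox8a, -0.0037 for Ndufa4l2, -0.0026 for Uqcrc1, -0.14 for Uqcrc2, -0.0569 for Cyc1, -0.0921 for Sco2, -0.18 for Nrf1, -0.0336 for Esrra and -0.15 for Tfam. With quantile normalization they were -0.0377 for Atp5b, 0.0677 for Atp5g2 and 0.0276 for Ppargc1a, and with median-of-ratios rescaling 0.071 for Atp5g2 and 0.0032 for Ppargc1a. With 1 tumor left out they ran from -0.0717 to 0.165 for Ndufa6, -0.0037 to 0.17 for Sdhc, -0.023 to 0.112 for Atp5b, -0.21 to 0.19 for Atp5g2, -0.0254 to 0.146 for Cox7a2, -0.0844 to 0.43 for Ndufa4l2, -0.0036 to 0.47 for Cox4i2, -0.0039 to 0.28 for Cyc1, -0.0597 to 0.33 for Sco2, -0.26 to 0.15 for Ppargc1a, -0.0696 to 0.13 for Nrf1 and -0.0595 to 0.16 for Tfam.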
